A study of Homo sapiens with 8 samples.

Results

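The 8 subunits of the condensin complexes and both human DNA topoisomerases II were described in PC3, a long-established cell line from human prostate cancer, in 4 libraries labelled siPRMT7 and 4 labelled siCtrl. The 10 genes were taken by symbol from the deposited table of 58735 genes, and each symbol matched 1 row. Gene positions are on GRCh38. They comprised the subunits SMC2 and SMC4, which both complexes share, the condensin I subunits NCAPD2, NCAPG and NCAPH, the condensin II subunits NCAPD3, NCAPG2 and NCAPH2, and the topoisomerases TOP2A and TOP2B. The siPRMT7 libraries carry the genotype label of a PRMT7 knockdown and the siCtrl libraries that of wild type. Cells of both groups were transfected with synthetic RNA by lipofection and cultured for another 48 h before poly(A) RNA was sequenced. The library names of the same samples use the prefix sh in place of si. PRMT7 is an arginine methyltransferase, and the series title ties it to the cell cycle. The labels do not say whether replicates were separate cultures, so the p-values measure only the spread between these libraries, which may be technical.

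Condensins are ring-shaped ATPase complexes that extrude loops of DNA and fold chromatin into compact mitotic chromosomes. SMC2 and SMC4 form the ATPase heterodimer of both complexes, which a kleisin subunit (NCAPH in condensin I, NCAPH2 in condensin II) closes, and 2 HEAT-repeat subunits (NCAPD2 and NCAPG, or NCAPD3 and NCAPG2) bind to the kleisin. Condensin II resides in the nucleus through interphase, whereas condensin I reaches chromosomes after the nuclear envelope breaks down. Topoisomerase II cuts both strands of a DNA duplex, passes another duplex through the break and reseals it, which untangles sister chromatids. TOP2A is made mainly in proliferating cells and accumulates towards G2 and mitosis, while TOP2B is present through the cell cycle and in cells that no longer divide.

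Each library held 14526030 to 15724862 fragments, rebuilt from the deposited levels, which are in FPKM, that is, fragments scaled to the length of the gene and to the library's size. PRMT7 itself had 4.69 ± 0.298 FPKM in the libraries labelled siPRMT7 and 5.11 ± 0.183 FPKM in siCtrl libraries (SD, n = 4 each), which is 8.29% lower (two-sided exact permutation p = 0.0571, smallest possible 0.0286). SMPD3 on the opposite strand shares 239 of its exonic bases. The differences of the 10 genes are therefore between groups as labelled. The library of siPRMT7 replicate 2 stood apart, at 28.4 on the first principal component, where the other 7 libraries lay between -11.9 and 7.36. Ribosomal protein genes held 3.89% of the fragments there and 2.93 to 3.41% in the other libraries. The label of the line was checked on its markers. The keratins KRT8, KRT18 and KRT19, EPCAM and VIM summed to 537 to 671 FPKM in siPRMT7 and 528 to 565 FPKM in siCtrl libraries. The prostate secretory genes KLK2 and KLK3 had 0 fragments in every library, and the 4 immune markers summed to at most 0.500 FPKM in siPRMT7 and 0.513 FPKM in siCtrl libraries. Of the 5 fibroblast markers, 3 were under 1 FPKM in every library, and the list summed to 8.48 to 9.88 FPKM in siPRMT7 and 8.28 to 9.71 FPKM in siCtrl libraries.

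Promoters of these genes are shown first. Of the 10 genes, 9 had a lower mean in siPRMT7 libraries, as did 50.5% of all genes tested. Whether promoter elements relate to these differences was not tested. RefSeq windows on GRCh38.p14, from 250 bases before to 50 after an annotated start, matched 9 of the 10 genes in 13 windows, NCAPH2 having none in the table used. They were searched on both strands for 3 elements known from promoters of cell-cycle genes, as exact letters: CCAAT (or ATTGG), the TTTGAA form of the cell-cycle genes homology region (or TTCAAA), and GCGGGAA (or TTCCCGC), a core of E2F sites. No matches in the windows of these genes overlapped each other. Capitals mark the matches in the 5 windows below, each written 5′ to 3′ on the strand of its gene.

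TOP2A promoter (chr17:40417847-40418146, minus strand): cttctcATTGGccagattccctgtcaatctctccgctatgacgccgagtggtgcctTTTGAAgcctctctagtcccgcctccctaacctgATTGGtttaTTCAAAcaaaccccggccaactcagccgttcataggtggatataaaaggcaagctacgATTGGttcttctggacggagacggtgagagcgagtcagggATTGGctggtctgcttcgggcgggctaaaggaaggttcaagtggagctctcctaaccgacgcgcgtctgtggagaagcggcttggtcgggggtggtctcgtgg
TOP2B promoter (chr3:25664858-25665157, minus strand): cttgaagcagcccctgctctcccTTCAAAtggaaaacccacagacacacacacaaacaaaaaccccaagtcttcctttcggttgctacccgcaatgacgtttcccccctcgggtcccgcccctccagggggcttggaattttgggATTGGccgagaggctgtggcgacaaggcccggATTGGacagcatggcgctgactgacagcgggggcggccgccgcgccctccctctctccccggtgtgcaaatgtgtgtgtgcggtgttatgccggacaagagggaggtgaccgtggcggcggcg
NCAPG promoter (chr4:17810729-17811028, plus strand): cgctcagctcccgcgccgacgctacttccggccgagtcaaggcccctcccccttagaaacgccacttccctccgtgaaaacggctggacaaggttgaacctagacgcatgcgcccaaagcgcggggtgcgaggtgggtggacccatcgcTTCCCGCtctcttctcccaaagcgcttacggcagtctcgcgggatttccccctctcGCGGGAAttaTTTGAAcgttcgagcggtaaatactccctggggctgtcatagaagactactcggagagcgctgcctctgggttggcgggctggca
SMC4 promoter (chr3:160399400-160399699, plus strand): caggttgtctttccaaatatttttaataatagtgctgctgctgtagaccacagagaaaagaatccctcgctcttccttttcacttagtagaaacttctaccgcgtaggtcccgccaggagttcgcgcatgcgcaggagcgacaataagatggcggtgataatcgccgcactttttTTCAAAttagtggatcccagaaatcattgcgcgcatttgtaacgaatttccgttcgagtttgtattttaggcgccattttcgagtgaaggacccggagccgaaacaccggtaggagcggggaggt
NCAPD3 promoter (chr11:134223918-134224217, minus strand): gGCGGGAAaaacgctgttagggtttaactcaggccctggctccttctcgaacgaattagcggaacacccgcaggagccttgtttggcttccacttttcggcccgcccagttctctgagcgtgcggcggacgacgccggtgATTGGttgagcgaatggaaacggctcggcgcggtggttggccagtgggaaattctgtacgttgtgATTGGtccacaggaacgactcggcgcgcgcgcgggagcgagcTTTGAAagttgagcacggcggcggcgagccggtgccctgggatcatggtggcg

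The TOP2A window held 4 CCAAT matches, whose first bases lay 244, 160, 93 and 53 bases before the start, and 2 TTTGAA matches 194 and 151 bases before it. That of TOP2B held 2 CCAAT matches and 1 TTTGAA match, and a second TOP2B window held 0 matches of any of the 3 elements. SMC2, SMC4 and NCAPD3 each also had another window with 0 matches. NCAPG had TTTGAA 35 bases before the start, with E2F cores 101 and 45 bases before it. SMC4 had TTTGAA 75 bases before the start. In NCAPD3 TTTGAA began 3 bases before the start, as it did in SMC2. NCAPG2 carried it 35 bases after the start and NCAPD2 145 bases before, in a window that also held 4 CCAAT matches. NCAPH had 1 CCAAT match and no TTTGAA. At least 1 window held TTTGAA in 8 of the 9 genes, CCAAT in 5 and the E2F core in 2. Of 27305 genes in the RefSeq table, 18.2% had TTTGAA in at least 1 window, 39.7% had CCAAT and 7.82% the E2F core. These are matches of letters and not measured binding sites.

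TOP2A, the topoisomerase of proliferating cells and the target of drugs such as etoposide, showed the largest difference of the 10 genes. TOP2A had 10.4, 8.25, 9.03 and 9.19 FPKM in siPRMT7 replicates 1 to 4, against 12.5, 12.0, 11.8 and 11.8 FPKM in siCtrl replicates 1 to 4. Every siPRMT7 library lay below every siCtrl library, with siPRMT7 replicate 2 the lowest and siPRMT7 replicate 1 the nearest to the siCtrl libraries. TOP2A (ENSG00000131747, chromosome 17, 40388516 to 40417950, minus strand) averaged 9.22 ± 0.893 FPKM in siPRMT7 and 12.0 ± 0.334 FPKM in siCtrl libraries (SD, n = 4 each), 23.2% lower, and 798 to 1278 fragments lay behind a value. On the log2(FPKM + 1) scale the difference was -0.35 (SE 0.0633, 95% interval -0.50 to -0.21), and it did not pass the adjustment over all genes tested (limma adjusted p = 0.125). With a weight for each library the call was made (limma adjusted p = 0.0326). In that setting 58 of the 13436 genes tested were called, against 2 as reported, and siPRMT7 replicate 2 had the lowest weight, 0.238. Over the other settings and left-out libraries the limma adjusted p of TOP2A ran from 0.0622 to 0.358. In bulk RNA, fewer cells in the phases that make TOP2A and less TOP2A transcript per cell cannot be told apart.

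TOP2B, the isoform that also acts in cells outside the cycle and at transcribed promoters, had the highest level of the 10 genes. TOP2B had 21.0, 20.0, 20.6 and 20.8 FPKM in siPRMT7 replicates 1 to 4, against 22.5, 22.3, 21.6 and 23.3 FPKM in siCtrl replicates 1 to 4. Again every siPRMT7 library was below every siCtrl library, the nearest being siPRMT7 replicate 1 at 21.0 FPKM and siCtrl replicate 3 at 21.6 FPKM. TOP2B (ENSG00000077097, chromosome 3, 25597905 to 25664907, minus strand) averaged 20.6 ± 0.401 FPKM in siPRMT7 and 22.4 ± 0.693 FPKM in siCtrl libraries (SD, n = 4 each), 8.10% lower (log2 fold change -0.12, 95% interval -0.20 to -0.03, limma adjusted p = 0.286).

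The balance between both isoforms differed between the groups. TOP2A had 0.496, 0.412, 0.438 and 0.443 times the FPKM of TOP2B in siPRMT7 replicates 1 to 4, against 0.556, 0.537, 0.544 and 0.507 times in siCtrl replicates 1 to 4. The groups did not overlap. On the log2(FPKM + 1) scale TOP2A minus TOP2B averaged -1.08 ± 0.1002 in siPRMT7 and -0.85 ± 0.0529 in siCtrl libraries (SD, n = 4 each), a difference of -0.24 (two-sided exact permutation p = 0.0286, the smallest that 70 assignments can give). TOP2A thus differed more between the groups than TOP2B did, although the lower level of TOP2A was known when the pair was chosen. With siPRMT7 replicate 2 left out the difference was -0.20, and with the trends on gene length and GC content removed it was -0.23.

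**Figure D1:**
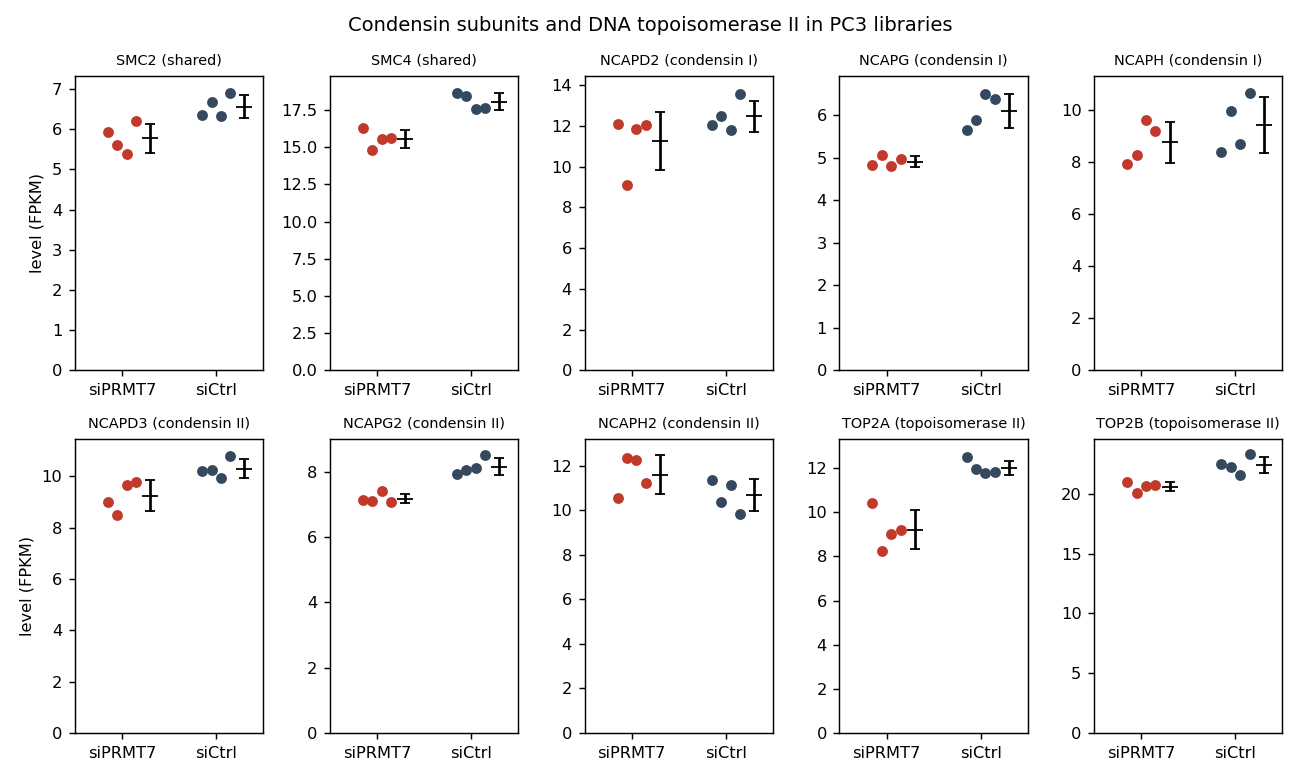
Level of each gene in FPKM (vertical axes from 0) in the 4 siPRMT7 libraries (red) and the 4 siCtrl libraries (dark blue), replicates 1 to 4 from left to right, with the mean and SD in black. SMC2, SMC4, NCAPG, NCAPD3, NCAPG2, TOP2A and TOP2B have no siPRMT7 library as high as the lowest siCtrl library, as holds for 4.43% of all genes tested, and in NCAPD2 siPRMT7 replicate 2 lies alone at 9.10 FPKM.

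Of the subunits common to both condensins, SMC4 was the more abundant per length and both were lower in every siPRMT7 library. SMC4 had 16.3, 14.8, 15.5 and 15.6 FPKM in siPRMT7 replicates 1 to 4, against 18.7, 18.4, 17.6 and 17.6 FPKM in siCtrl replicates 1 to 4. SMC2 had 5.93, 5.60, 5.37 and 6.20 FPKM in siPRMT7 replicates 1 to 4, against 6.36, 6.69, 6.32 and 6.91 FPKM in siCtrl replicates 1 to 4. In neither gene did the groups overlap, and the lowest libraries were siPRMT7 replicate 2 for SMC4 and siPRMT7 replicate 3 for SMC2. SMC4 (ENSG00000113810, chromosome 3, 160399274 to 160434962, plus strand) was 13.9% lower in the mean (log2 fold change -0.20, 95% interval -0.30 to -0.11, limma adjusted p = 0.170). SMC2 (ENSG00000136824, chromosome 9, 104094260 to 104141417, plus strand) was 12.1% lower (log2 fold change -0.16, 95% interval -0.28 to -0.04, limma adjusted p = 0.288). The partners form a dimer in equal numbers, but SMC4 had 2.70 ± 0.157 times the FPKM of SMC2 in siPRMT7 and 2.76 ± 0.158 times in siCtrl libraries (SD, n = 4 each), and these ratios overlapped between groups. Of the 8457 exonic bases of SMC4, 2168 are shared with IFT80 and TRIM59 on the opposite strand. The labels leave unstated if strand was used in counting, so fragments on the shared bases may have been counted for any of these genes or left out. The direction of any effect on the level of SMC4 is therefore not known.

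Among condensin I subunits, NCAPG stood out and the others overlapped between groups. NCAPG had 4.82, 5.06, 4.80 and 4.97 FPKM in siPRMT7 replicates 1 to 4, against 5.65, 5.90, 6.51 and 6.39 FPKM in siCtrl replicates 1 to 4. NCAPG, a HEAT-repeat subunit, was thus below every siCtrl library in all siPRMT7 libraries, which lay within 4.80 to 5.06 FPKM. It was the least abundant of the 10 genes per length and had the largest difference of the 8 condensin subunits. NCAPG (ENSG00000109805, chromosome 4, 17810902 to 17844862, plus strand) was 19.6% lower (log2 fold change -0.26, 95% interval -0.38 to -0.15, limma adjusted p = 0.147), on 355 to 485 fragments per library. LCORL on the opposite strand shares 1631 of NCAPG's 4921 exonic bases.

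NCAPD2, the other HEAT-repeat subunit of condensin I, differed mainly in 1 library. NCAPD2 had 12.1, 9.10, 11.8 and 12.0 FPKM in siPRMT7 replicates 1 to 4, against 12.1, 12.5, 11.8 and 13.6 FPKM in siCtrl replicates 1 to 4. The siPRMT7 replicate 2 value was the lowest of all, while the other siPRMT7 libraries lay within the siCtrl range. NCAPD2 (ENSG00000010292, chromosome 12, 6493356 to 6531955, plus strand) was 9.71% lower (log2 fold change -0.14, 95% interval -0.34 to 0.06, limma adjusted p = 0.496), and without siPRMT7 replicate 2 its log2 fold change was -0.05. MRPL51 on the opposite strand shares 486 of NCAPD2's 6487 exonic bases. NCAPH had 7.93, 8.27, 9.59 and 9.17 FPKM in siPRMT7 replicates 1 to 4, against 8.37, 9.96, 8.68 and 10.6 FPKM in siCtrl replicates 1 to 4. The kleisin NCAPH varied in both groups, and only siPRMT7 replicates 1 and 2 were below all siCtrl libraries. NCAPH (ENSG00000121152, chromosome 2, 96335787 to 96373845, plus strand) was 7.13% lower (log2 fold change -0.09, 95% interval -0.28 to 0.10, limma adjusted p = 0.620), and its log2 fold change lay between -0.14 and -0.04 with 1 library left out, the value nearest 0 without siCtrl replicate 4.

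In condensin II, NCAPG2 and NCAPD3 were lower in siPRMT7 libraries and NCAPH2 was not. NCAPG2 had 7.13, 7.13, 7.40 and 7.07 FPKM in siPRMT7 replicates 1 to 4, against 7.94, 8.05, 8.14 and 8.52 FPKM in siCtrl replicates 1 to 4. The HEAT-repeat subunit NCAPG2 had no overlap between groups and little spread within either. NCAPG2 (ENSG00000146918, chromosome 7, 158631311 to 158704829, minus strand) was 12.0% lower (log2 fold change -0.16, 95% interval -0.26 to -0.07, limma adjusted p = 0.201). NCAPD3 had 9.01, 8.50, 9.65 and 9.79 FPKM in siPRMT7 replicates 1 to 4, against 10.2, 10.2, 9.95 and 10.8 FPKM in siCtrl replicates 1 to 4. For NCAPD3, the other HEAT-repeat subunit, siPRMT7 replicate 4 came nearest to the siCtrl libraries, and siPRMT7 replicate 2 was lowest. NCAPD3 (ENSG00000151503, chromosome 11, 134150119 to 134225454, minus strand) was 10.4% lower (log2 fold change -0.14, 95% interval -0.26 to -0.03, limma adjusted p = 0.310). It shares 810 of its 9114 exonic bases with genes on the opposite strand, JAM3 and VPS26B among them.

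NCAPH2, the kleisin of condensin II, was the 1 gene of the 10 with a higher mean in siPRMT7 libraries. NCAPH2 had 10.5, 12.4, 12.2 and 11.2 FPKM in siPRMT7 replicates 1 to 4, against 11.4, 10.4, 11.1 and 9.84 FPKM in siCtrl replicates 1 to 4. The groups overlapped, with siPRMT7 replicates 2 and 3 above every siCtrl library and siPRMT7 replicate 1 below the siCtrl mean. NCAPH2 (ENSG00000025770, chromosome 22, 50508216 to 50523472, plus strand) averaged 11.6 ± 0.871 FPKM in siPRMT7 and 10.7 ± 0.710 FPKM in siCtrl libraries (SD, n = 4 each; log2 fold change 0.11, 95% interval -0.04 to 0.25, limma adjusted p = 0.481). With the trends on gene length and GC content removed its log2 fold change was 0.03. NCAPG2 had 0.676, 0.576, 0.605 and 0.631 times the FPKM of NCAPH2 in siPRMT7 replicates 1 to 4, against 0.697, 0.778, 0.730 and 0.866 times in siCtrl replicates 1 to 4, with no overlap between the groups. The matching ratio in condensin I, NCAPG over NCAPH, was 0.566 ± 0.0540 times in siPRMT7 and 0.655 ± 0.0734 times in siCtrl libraries and overlapped between groups (SD, n = 4 each). NCAPD2 over NCAPD3 was 1.22 ± 0.112 times in siPRMT7 and 1.21 ± 0.0337 times in siCtrl libraries and overlapped as well. None of these 3 ratios was tested, and none was computed with the trends on gene length and GC content removed. NCAPG2 has 6988 bases and NCAPH2 3159, and with those trends removed the log2 fold change of NCAPG2 was -0.12.

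Condensin I as a whole was not separated from condensin II. The mean log2(FPKM + 1) level of the 3 condensin I subunits minus that of the 3 condensin II subunits was -0.15, -0.29, -0.20 and -0.14 in siPRMT7 replicates 1 to 4 and -0.20, -0.06, -0.13 and 0.01 in siCtrl replicates 1 to 4. The groups overlapped, the difference of the means was -0.10, and no test was made of this summed value. The mean level of condensin I was -0.17 apart between siPRMT7 and siCtrl libraries on the log2 scale, that of the shared subunits -0.18 and that of condensin II, which includes NCAPH2, -0.07. Summed in FPKM, condensin I had 0.890 ± 0.0616 times the level of condensin II in siPRMT7 and 0.961 ± 0.0724 times in siCtrl libraries (SD, n = 4 each).

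**Figure D2:**
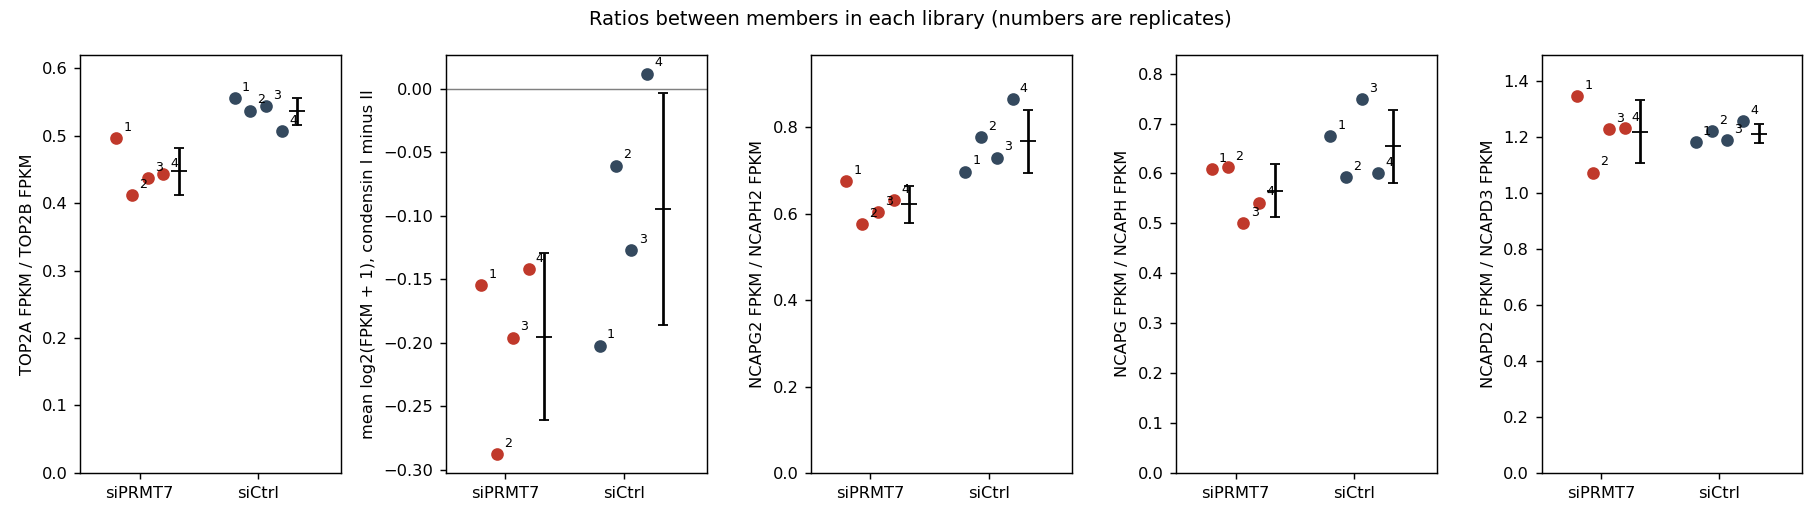
Ratios between members in each siPRMT7 (red) and siCtrl (dark blue) library, numbered by replicate, with mean and SD in black: TOP2A FPKM over TOP2B FPKM, the mean log2(FPKM + 1) of condensin I minus that of condensin II, and the FPKM ratios NCAPG2 over NCAPH2, NCAPG over NCAPH and NCAPD2 over NCAPD3. The TOP2A to TOP2B ratio lies between 0.412 and 0.496 in siPRMT7 and between 0.507 and 0.556 in siCtrl libraries, whereas the condensin I minus condensin II values and the last 2 ratios overlap.

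The order of the levels was much alike in both groups. By mean FPKM, siPRMT7 libraries ran TOP2B, SMC4, NCAPH2, NCAPD2, NCAPD3, TOP2A, NCAPH, NCAPG2, SMC2 and NCAPG, and siCtrl libraries ran TOP2B, SMC4, NCAPD2, TOP2A, NCAPH2, NCAPD3, NCAPH, NCAPG2, SMC2 and NCAPG. In siPRMT7 libraries the ranges of neighbouring genes overlapped from NCAPH2 down to NCAPH. In siCtrl libraries they overlapped between NCAPD2 and TOP2A, from NCAPH2 down to NCAPG2, and between SMC2 and NCAPG. TOP2A stood in place 6 in siPRMT7 and place 4 in siCtrl libraries. The whole range was 4.91 to 20.6 FPKM in siPRMT7 and 6.11 to 22.4 FPKM in siCtrl libraries, and all 10 genes passed the filter of FPKM at least 1 in at least 4 libraries.

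Across the 10 genes, 9 had a lower mean in siPRMT7 libraries, and 0 passed an adjusted p of 0.05 in limma, where 0.0149% of the 13436 genes tested did. The smallest adjusted p among them was 0.125, of TOP2A, and voom on rebuilt fragments also called 0. At an unadjusted p under 0.05, 7 of the 10 were lower, against 5.49% of all genes tested. In the same 7 the groups did not overlap, against 4.43% of all genes for which every siPRMT7 library was lower. Of the 10 genes 0 were higher without overlap, against 4.14% of all genes. The median log2 fold change was -0.15 over the 10 genes and -0.0015 over all genes tested, of which 50.5% were lower. By log2 fold change TOP2A was in place 228 of 13436 from the lowest and NCAPG in place 426. No interval reached a halving, which would be -0.81 to -0.94 for these levels. The mean departure of the 10 genes from the siCtrl mean was -0.15, -0.21, -0.13 and -0.12 in siPRMT7 replicates 1 to 4, and siCtrl libraries lay between -0.02 and 0.04. Without siPRMT7 replicate 2 the median over the 10 genes was -0.13.

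**Figure D3:**
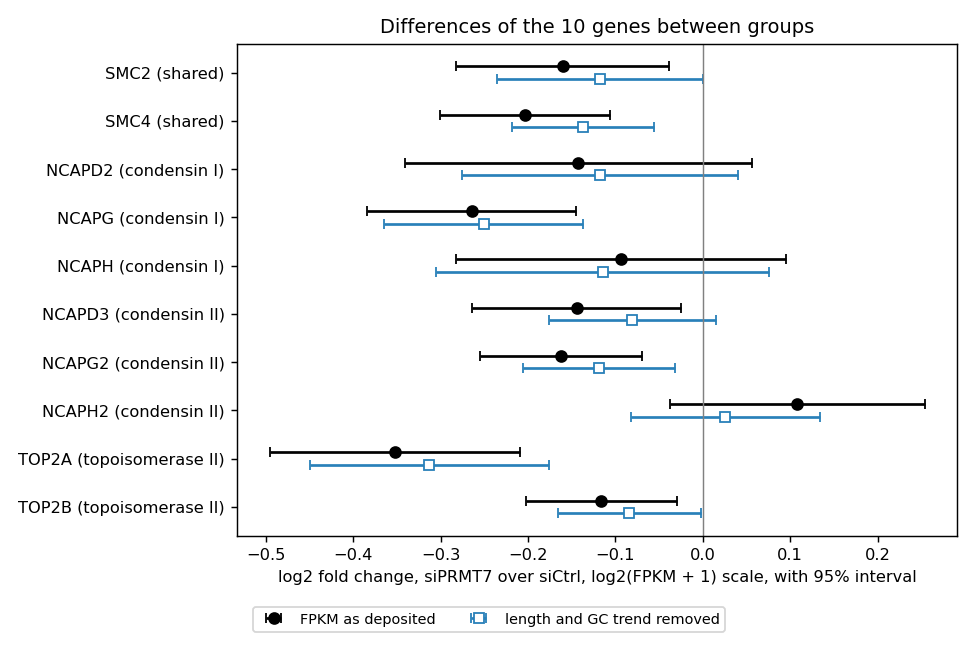
Log2 fold change of each gene, siPRMT7 over siCtrl, with its 95% interval from limma (horizontal axis, log2(FPKM + 1) scale), for FPKM as deposited (black circles) and after removal of trends with gene length and GC content (open blue squares). TOP2A lies at -0.35 and -0.31, NCAPG at -0.26 and -0.25, and NCAPH2 alone lies above 0, at 0.11 and 0.03.

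Gene length moved with the difference between the groups over all genes tested. Genes of 2 to 3 kilobases had a median log2 fold change of 0.07 and 27.0% of them were lower, while genes of 6 to 8 kilobases had -0.03 and 65.0%, and those of 8 to 10 kilobases -0.05 and 73.0%. Of the 10 genes, 7 have 6 to 10 kilobases, NCAPG has 4921 bases, and NCAPH and NCAPH2 are the shortest at 3278 and 3159 bases. All of the 9 lower genes were below the median of their own range of length, and NCAPH2 was above it. With the trends on length and GC content removed, 9 genes were lower, 6 without overlap between groups and 5 at an unadjusted p under 0.05, where 5.45% of all genes tested were lower at that p with the trends removed. The shares of all genes that were lower, or lower without overlap, were not computed after this removal. The median over the 10 was -0.12, and over all genes tested it was 0.0013. The log2 fold change of SMC4 was -0.14 and that of NCAPD3 -0.08 after this step, while TOP2A and NCAPG kept -0.31 and -0.25.

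**Figure D4:**
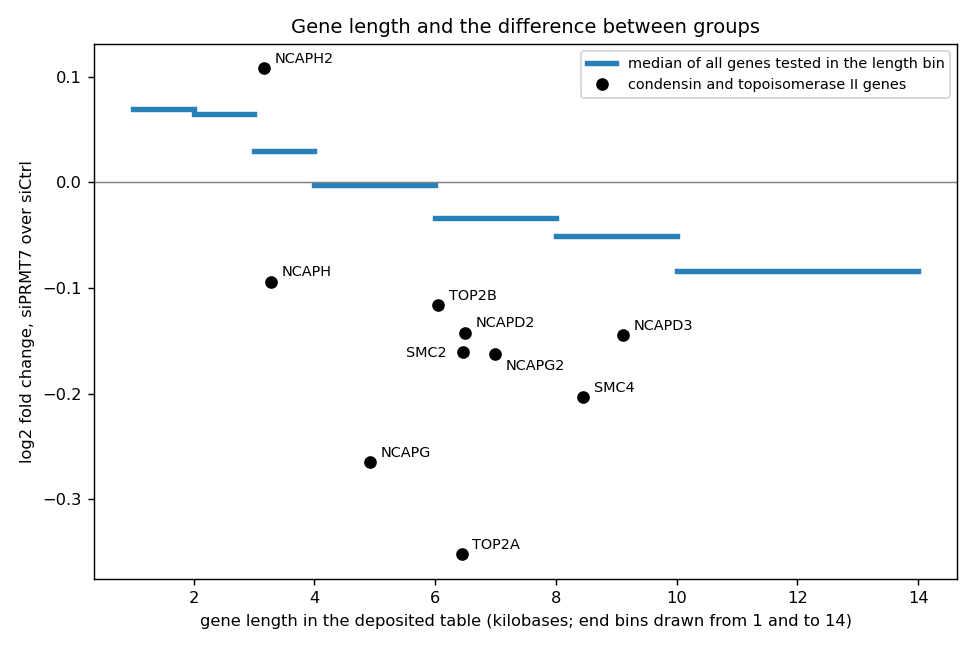
Log2 fold change, siPRMT7 over siCtrl, against gene length in kilobases for the 10 genes (black points) and as medians of all genes tested in ranges of length (blue bars). The medians run from 0.07 below 2 kilobases to -0.08 from 10 kilobases on, and TOP2A and NCAPG lie farthest below the bars.

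Other genes of chromosome structure were taken from lists, 49 genes in all, of which 47 passed the filter. Of these, 36 were lower, against 50.5% of all genes tested, and 11 higher. By limma 0 were called with adjustment over all genes, and 12 were lower at an unadjusted p under 0.05, against 5.49% of all genes tested. Values of these lists with the trends on gene length and GC content removed are not given here, and the part of these trends in the counts was not tested. In 8 of the 47 every siPRMT7 library was lower, against 4.43% of all genes, and in 1 every siPRMT7 library was higher, against 4.14%. That gene was AKAP8, named here after its values were seen, an anchoring protein that recruits condensin to chromosomes, with 14.9 ± 0.529 FPKM in siPRMT7 and 13.9 ± 0.657 FPKM in siCtrl libraries (SD, n = 4 each; log2 fold change 0.10, 95% interval -0.01 to 0.20, limma adjusted p = 0.405). Of 15 partners of chromosome condensation, 11 were lower, against 50.5% of all genes tested, with a median log2 fold change of -0.12. KIF4A, a chromokinesin that works with condensin I on the chromosome axis, averaged 8.03 ± 0.300 FPKM in siPRMT7 and 9.20 ± 0.309 FPKM in siCtrl libraries (SD, n = 4 each) with no overlap (log2 fold change -0.18, 95% interval -0.28 to -0.08, limma adjusted p = 0.201). MKI67 had 7.47, 4.24, 6.43 and 7.46 FPKM in siPRMT7 replicates 1 to 4, against 8.23, 8.35, 7.83 and 9.23 FPKM in siCtrl replicates 1 to 4. MKI67, which coats mitotic chromosomes, was thus lower in all siPRMT7 libraries, with siPRMT7 replicate 2 far below the others (log2 fold change -0.37, 95% interval -0.69 to -0.05, limma adjusted p = 0.329). CDK1, the mitotic kinase that phosphorylates condensins, ranged over 13.9 to 17.2 FPKM in siPRMT7 and 16.8 to 19.1 FPKM in siCtrl libraries, which overlapped (log2 fold change -0.27, 95% interval -0.44 to -0.11, limma adjusted p = 0.217). INCENP, the scaffold of the Aurora B complex, averaged 11.8 ± 1.19 FPKM in siPRMT7 and 13.8 ± 0.342 FPKM in siCtrl libraries with no overlap (log2 fold change -0.22, 95% interval -0.36 to -0.07, limma adjusted p = 0.262). KIF4A, MKI67, CDK1 and INCENP had the smallest p of the 15 partners, of which 4 were higher. BIRC5, PLK1, KIF22 and NUSAP1 of the same list, named after their values were seen, had log2 fold changes of -0.04, -0.07, 0.005 and 0.04. KIF4A, MKI67, CDK1 and INCENP mark proliferation as well, and their part in the values of the 10 genes was not tested.

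The cohesin complex, which holds sister chromatids together, was lower in all 5 core subunits (median log2 fold change -0.11), against 50.5% of all genes tested. Each of the 5 overlapped between groups. STAG2 averaged 23.0 ± 0.805 FPKM in siPRMT7 and 25.1 ± 0.821 FPKM in siCtrl libraries and SMC3 12.5 ± 0.675 FPKM in siPRMT7 and 13.7 ± 0.955 FPKM in siCtrl libraries. STAG1 and SMC1A, also among the 4 core genes with the smallest p, had log2 fold changes of -0.08 and -0.11. Of 11 cohesin regulators tested, 10 were lower (median -0.15), against 50.5% of all genes tested. Without overlap 4 of them were lower, against 4.43% of all genes. These were the release factor WAPL (log2 fold change -0.15, 95% interval -0.26 to -0.04, limma adjusted p = 0.266), its partners PDS5A and PDS5B (log2 fold changes -0.12 and -0.18) and CDCA5, the protector of cohesion known as sororin (-0.15). HDAC8 was under the filter. Of 8 genes of the complex of SMC5 and SMC6, which acts in DNA repair, 4 were lower, with a median of -0.00446. Over all genes tested 50.5% were lower. The part of gene length in this division was not tested. SMC6 averaged 4.54 ± 0.0678 FPKM in siPRMT7 and 5.13 ± 0.221 FPKM in siCtrl libraries without overlap, SLF2, which brings the complex to chromatin, had a log2 fold change of -0.21, SMC5 -0.10 and NSMCE3 0.14.

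Among the other topoisomerases and the enzymes that clear them from DNA, 6 of 8 tested were lower, against 50.5% of all genes tested. Their median was -0.05, with no gene at an unadjusted p under 0.05. TOP1, which relaxes DNA by cutting a strand at a time, averaged 65.8 ± 2.08 FPKM in siPRMT7 and 67.7 ± 1.38 FPKM in siCtrl libraries (log2 fold change -0.04, 95% interval -0.13 to 0.05, limma adjusted p = 0.642). TDP2, which removes topoisomerase II from broken DNA ends, averaged 17.7 ± 1.29 FPKM in siPRMT7 and 16.2 ± 0.557 FPKM in siCtrl libraries (log2 fold change 0.12, 95% interval -0.01 to 0.25, limma adjusted p = 0.389). TDP1 and TOP3A had log2 fold changes of -0.10 and -0.10, and TOP3B was under the filter.

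**Figure D5:**
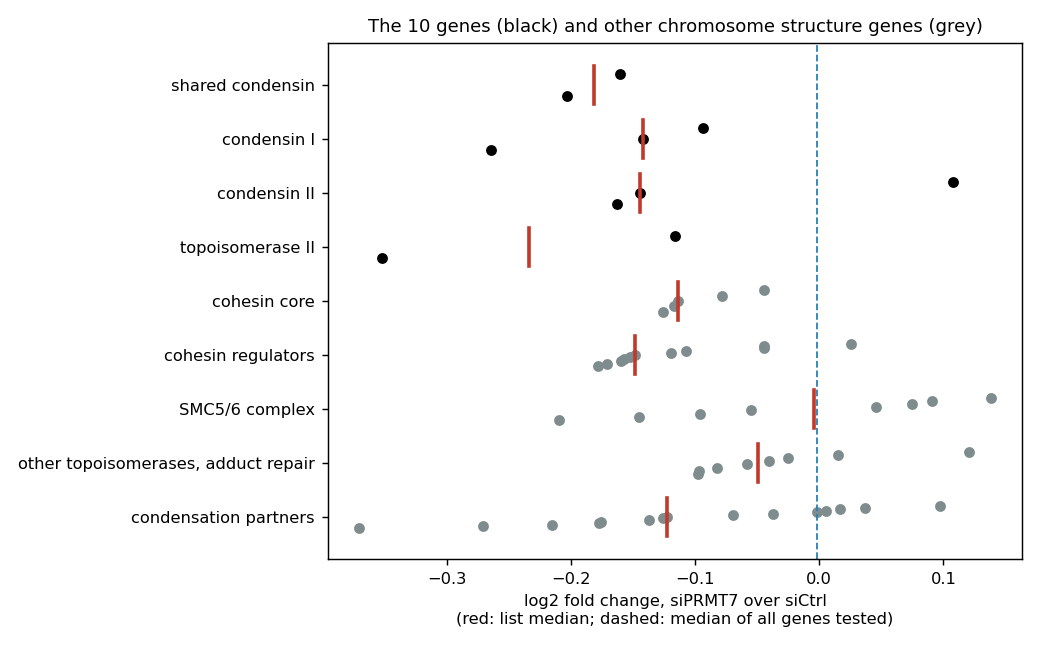
Log2 fold change, siPRMT7 over siCtrl, of each tested gene in the 4 groups of condensin and topoisomerase II genes (black) and in 5 lists of other chromosome structure genes (grey), with list medians in red and the median of all genes tested dashed. The cohesin lists and the condensation partners have medians of -0.11, -0.15 and -0.12, and MKI67 lies lowest at -0.37.

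The profiles of the members over the 8 libraries were compared by the root mean square difference of their log2(FPKM + 1) values, each centred on its own mean. The profiles were not scaled to the variation of each gene, so genes that vary little come out close whatever their pattern. The closest pair was NCAPG2 and TOP2B (0.0392), followed by NCAPD3 and TOP2B (0.0470), and SMC2 and SMC4 were 0.0675 apart. The widest pair was NCAPH2 and TOP2A (0.271). Among 7617 other genes with a mean FPKM of at least 5, the nearest to TOP2A were TOPBP1, a scaffold of the replication checkpoint (0.0470), BUB1B, the spindle checkpoint kinase BubR1 (0.0589), AC115618.2, an antisense transcript (0.0659), MCM8, a helicase of homologous recombination (0.0719), and DTL, a ubiquitin ligase adaptor of S phase (0.0744). BUB1B, for example, averaged 9.50 ± 0.776 FPKM in siPRMT7 and 11.7 ± 0.257 FPKM in siCtrl libraries (SD, n = 4 each). The value of the antisense gene is uncertain where counting ignored strand. The nearest to NCAPG were MYBL2, a transcription factor of proliferating cells (0.0406), RRM1, a subunit of ribonucleotide reductase (0.0436), MCU, the mitochondrial calcium uniporter (0.0508), OXTR, the oxytocin receptor (0.0509), and HMGB3, a chromatin protein (0.0519). None of these neighbours in profile passed the limma adjustment, and their likeness is a description over 8 libraries that share the group difference.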

How the data were processed

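The authors deposited 1 table of FPKM values. Per the submitters' processing notes, reads went through cutadapt 2.5, HISAT2 2.1.0 and featureCounts 1.6.3. These notes name a mouse build, but all 58735 gene identifiers match human GENCODE release 29 (GRCh38) in start, end and strand. FPKM times gene length was a whole multiple of 1 step per library within 0.01 fragments, which gave fragment counts and library sizes already scaled between libraries. Intervals reflect the spread between libraries, and fragment numbers cover counting error only.

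The 13436 genes that reached FPKM 1 in 4 or more of the 8 libraries were tested in limma 3.58.1 (R 4.3.3) on a log2(FPKM + 1) scale (variance trend, two-sided, Benjamini-Hochberg over all genes, threshold 0.05), tested on simulated data first. Fold changes on this scale understate those of low genes. Single values were tested by exact permutation over 70 assignments. Named were all 10 genes, PRMT7, of each further list the up to 4 genes with the smallest p, and 5 genes nearest in profile to TOP2A and to the condensin subunit with the smallest p. The 10 genes, lists and tests were chosen with earlier results of these data known. Alternatives covered pseudocounts, filters, scalings, variance models, voom, pairing, each library left out and, chosen after seeing the data, removal of length and GC trends.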

Additional observations from a re-analysis of the deposited data

Results flagged for a closer look

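In 26 groups of 4 libraries examined (the 10 genes, PRMT7, the TOP2A to TOP2B ratio and the condensin I minus condensin II value, each in both groups), 1 library lay apart from the others of its group, where chance marks about 1 in 20. NCAPD2 had 9.10 FPKM in siPRMT7 replicate 2, where the other siPRMT7 libraries had 11.8 to 12.1 FPKM, a gap of 0.912 of the group's range. The same library stands apart over all genes, and its part in the value was not tested.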

How the results depend on the processing

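All 10 genes kept the sign of their log2 fold change in every one of 19 alternatives, 190 values in all. Of these, 189 also stayed on the same side of the threshold, and TOP2A with library weights passed it (log2 fold change -0.34, limma adjusted p = 0.0326). Over all genes limma called 2 as reported, 1 with a pseudocount of 0.1, with FPKM at least 5 or with quantile normalization, 5 with no filter, 58 with library weights, 12 with voom, 8 with the length and GC trends removed, and 0 to 2 with 1 library left out, the 2 without siPRMT7 replicate 2 or 4 and 0 without any of the others, where 1166 to 2754 had an unadjusted p under 0.05. The replicate block called 0, where 1646 had an unadjusted p under 0.05, and it changed no call of the 10 genes. Same-numbered libraries showed little shared variation (correlation of deviations -0.0314 to 0.0613). This cannot decide whether the numbers pair the libraries, since paired libraries may share little variation. For the TOP2A to TOP2B difference of -0.24 the paired exact permutation p was 0.125, the smallest that 4 pairs can give, and with 1 library left out the difference was -0.28 to -0.20 with p = 0.0571 each time, again the smallest possible, so neither speaks to its stability. PRMT7, siPRMT7 minus siCtrl, differed by -0.557 on the TPM scale (exact permutation p = 0.0286), and by -0.529 to -0.297 FPKM without 1 library. Condensin I minus condensin II stayed negative, -0.14 to -0.07 without 1 library. The count of genes lower without overlap was 6 on the TPM scale. There the median log2 fold change of all genes tested was -0.035, and the share of all genes without overlap was not computed. With 1 library left out the count was 7 each time. It could not be below 7, since removing a library cannot make groups overlap. The depth gave 355 to 2508 fragments per value, a counting error of at most 5.31%. The interval of NCAPH reached from -0.28 to 0.10, and that of NCAPH2 from -0.04 to 0.25, so differences of that size would not be resolved.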
